A study of Homo sapiens with 6 samples.

Results

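The 10 genes described here encode the clathrin coat and its plasma membrane adaptor: the 5 AP-2 subunit genes AP2A1, AP2A2, AP2B1, AP2M1 and AP2S1, the clathrin chains CLTC, CLTA and CLTB, the assembly protein PICALM and the scission GTPase DNM2. They were taken by symbol from 40173 genes in a table of read counts, and all 10 were among the 15250 genes that passed a filter on low counts. The group was selected on the measured difference between silenced and control libraries, so its fold changes are given as a description and without a p-value. The cells were labelled A549, a line derived from a human lung adenocarcinoma. They were transfected either with a small interfering RNA (siRNA) against the long noncoding RNA FAM83H-AS1 (the silenced group, 3 libraries) or with a scrambled negative control (the control group, 3 libraries), and RNA was taken a day later. Libraries of total RNA were read on an Ion Proton sequencer. The comparison asks which mRNA levels differ between cells given this siRNA and control cells. Effects of losing FAM83H-AS1 and other effects of the siRNA cannot be told apart in this design. The labels do not state whether the 3 libraries of a group came from separate cultures, so the spread between them may be technical, and a transfection of 1 line tests the siRNA in that line alone.

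Clathrin-mediated endocytosis carries receptors and their ligands into the cell. The AP-2 complex, made of a large α subunit (from AP2A1 or AP2A2), a large β2 subunit (AP2B1), a medium μ2 subunit (AP2M1) and a small σ2 subunit (AP2S1), binds membrane lipids and sorting signals in the tails of cargo and recruits clathrin. Clathrin heavy chains (CLTC) with bound light chains (CLTA, CLTB) form the lattice, PICALM binds both lipids and clathrin at the growing pit, and dynamin 2 (DNM2) pinches the vesicle off. In epithelial tumor cells this route takes up the transferrin receptor and the EGF receptor.

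Library totals ranged from 9738291 to 17742643 counts, with 21021 to 22202 genes detected. Levels are given as CPM, in which counts are divided by library sizes after TMM scaling. Only the levels of the cell type markers below, and their sums, use library totals without TMM scaling. Pairs of replicates differed by 3.92 to 26.8 times sampling noise (chi-square per degree of freedom), and the highest values, 22.7 and 26.8, were those of control replicate 3 with the other control libraries. FAM83H-AS1 fell from 15.9 ± 1.39 CPM (SD, n = 3) in control cells to 4.87 ± 0.617 in silenced cells, a log2 fold change of -1.70 ± 0.148 (standard error; edgeR adjusted p = 7.99e-05). The cell type was checked with 9 markers of A549 and epithelial cells. The keratins KRT7, KRT8 and KRT18 were abundant (921 to 2079 CPM), but KRT19, CDH1 and AKR1B10 lay between 0.495 and 2.48 CPM and EPCAM between 2.81 and 4.55 CPM. AKR1C1 and NQO1, which are high in A549, were at 68.4 to 129.8 and 178.7 to 217.6 CPM. CDKN2A, which is homozygously deleted in A549, was at 49.2 to 74.8 CPM in the 6 libraries, and its neighbours CDKN2B and MTAP, examined after these values were seen, respectively reached 16.5 CPM and were at 32.5 CPM or more. The presence of the deleted genes and the near absence of KRT19, CDH1, EPCAM and AKR1B10 go against the label. However, 5 of the 9 markers were above 50 CPM in every library. The cells are therefore called cells labelled A549. The summed level of the 9 markers was 4469 to 5036 CPM in control and 3852 to 3962 CPM in silenced libraries. That of 8 markers of other cell types was 131.5 to 143.7 and 238.4 to 258.9 CPM, nearly all of it from CD68, a lysosomal protein. CD3E was at 0 in the 6 libraries, PTPRC and CD79A at 0 in 4 each, and PECAM1 and DCN did not exceed 4 counts. CDH5 (1.92 to 4.44 CPM) and PDGFRB (3.13 to 6.83 CPM) were low but counted in every library, above the range of KRT19 and CDH1. The part of these shifts in the results below was not tested.

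AP2M1 was the member that differed most. Its mRNA, for the subunit that reads tyrosine-based sorting signals, was counted 3832, 4633 and 6990 times in control cells against 2002, 2228 and 2877 times in silenced cells. Scaled, these were 394, 400 and 413 CPM against 196, 206 and 214 CPM. The groups lay far apart, and the libraries within each group differed little. The mean was 402 ± 9.86 CPM in control cells and 205 ± 9.22 CPM in silenced cells (SD, n = 3). This is 51.0% of control, and the log2 fold change was -0.97 ± 0.0674 (standard error). In bulk RNA, less of this mRNA per cell and fewer cells that make it cannot be told apart. Of the 15250 genes, ranked from the lowest log2 fold change, AP2M1 was at place 258. Under the 12 other settings tried, which include leaving out each library, the log2 fold change stayed between -1.0048 and -0.94.

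Some annotated AP2M1 transcripts end with a short sequence that is printed here because transcripts of AP2S1, CLTC and AP3D1, an adaptor gene that fell, share it. The 7-base word CCAATAA was known from an earlier look at these data as one whose presence in 3′-UTRs went with lower levels after silencing, so what follows is a description. It was searched on the mRNA (sense) strand of all annotated 3′-UTRs of coding transcripts (GENCODE 29, GRCh38). The sites below are shown 5′ to 3′ on that strand, with the word in capitals and 10 flanking bases on each side.
AP2M1 (chr3:184184060-184184086, plus strand): agttacaaacCCAATAAactctgtaga
AP2S1 (chr19:46838176-46838202, minus strand): cgtggagtccCCAATAAacctgtggtc
CLTC (chr17:59687117-59687143, plus strand): ctttttccccCCAATAAattttcacta
AP3D1 (chr19:2101000-2101026, minus strand): tcaagatgatCCAATAAagttgtaaaa

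In AP2M1 the word begins at base 454 of a 3′-UTR of 475 bases, in the last exon of the gene (chr3:184174689-184184091), and 15 bases follow it before the annotated transcript end. It was found in 2 of the 11 annotated coding transcripts of AP2M1. In AP2S1 it begins at base 255 of 280, with 19 bases after it, and was found in 6 of 7. In CLTC it was found in 1 of 7 coding transcripts, a short one whose 3′-UTR has 84 bases, and not in the longest transcript. In all of these sites the last bases of the word form the start of AATAAA, the canonical polyadenylation signal, so that the word overlaps that signal. The word was carried by 3 of the 10 members (30%), or by 2 (20%) when the longest coding transcript of each gene was searched alone. Of 11552 tested genes with an annotated 3′-UTR, 1467 (12.7%) held it in any coding transcript and 1302 (11.3%) in the longest. The median log2 fold change of the 1467 was -0.08, and 21.9% of them were lower with an edgeR adjusted p under 0.05. Among the 10085 genes without the word the median was 0.01, and 7.32% were lower. Position within the 3′-UTR was examined after these values were seen. The 516 genes with the word within 40 bases of a transcript end had a median of -0.22, with 34.7% lower and 5.43% higher, and the 951 with the word elsewhere had a median of -0.03, with 14.9% lower. AP2M1 lies in the low tail of the first class and AP2S1 (-0.21) near its middle, whereas CLTC (0.22) was above it. A match does not show that a site is used, and which 3′ end the cells make was not measured.

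**Figure D1:**
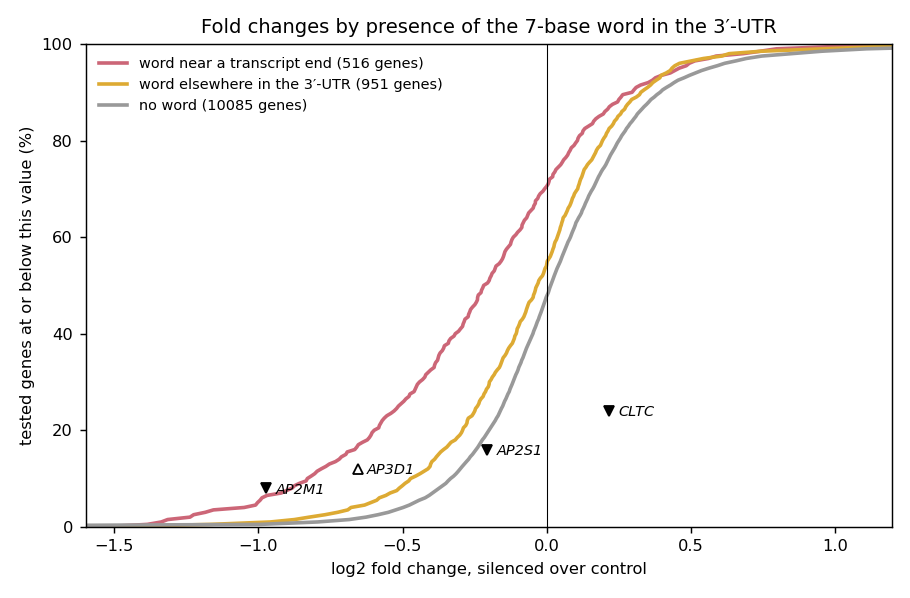
Cumulative share (%) of tested genes at or below each log2 fold change (silenced over control), for 516 genes with the 7-base word within 40 bases of a transcript end, 951 with the word elsewhere in the 3′-UTR and 10085 without it. At its median (-0.22) the curve of the first class lies to the left of those of the others (-0.03 and 0.01), while the curves cross in the tails, and triangles mark, at arbitrary heights, the log2 fold changes of AP2M1 (-0.97), AP3D1 (open, -0.66), AP2S1 (-0.21) and CLTC (0.22).

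The other AP-2 subunits differed much less. AP2B1, which encodes the β2 subunit that binds clathrin, was at 361, 405 and 431 CPM in control and 312, 335 and 336 CPM in silenced libraries. The silenced libraries lay below the lowest control library, and the control libraries were spread more widely. The log2 fold change was -0.28 ± 0.0787 (standard error), from 399 ± 35.5 to 328 ± 13.7 CPM (SD, n = 3), and it ranged from -0.35 to -0.23 over the 12 other settings. AP2B1 shares the end of its locus with TAF15 on the same strand, and TAF15 had a log2 fold change of -0.01 (edgeR adjusted p = 0.97).

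AP2S1, the small subunit, was at 97.6, 94.5 and 94.5 CPM in control and 78.3, 79.2 and 90.8 CPM in silenced libraries. The groups did not overlap, although silenced replicate 3 came close to the controls. Its log2 fold change was -0.21 ± 0.0799. The α subunit genes showed no separation of the groups. AP2A1 was at 128 to 144 CPM in control and 140 to 152 CPM in silenced libraries (log2 fold change 0.09 ± 0.0754), and AP2A2 at 76.4 to 90.6 and 77.0 to 82.6 CPM (-0.06 ± 0.0825). Within a library, the log2 ratio of AP2A1 to AP2A2 counts, which needs no scaling between libraries, was 0.79, 0.75 and 0.67 in control and 0.98, 0.76 and 0.91 in silenced cells. The mean ratio differed by 0.15 between the groups, against an SD of 0.0591 in control and 0.11 in silenced cells, and the values of the groups overlapped.

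The summed level of the 5 AP-2 genes was 1118 ± 49.6 CPM in control and 842 ± 27.4 CPM in silenced cells (SD, n = 3), or 75.3% of control. AP2M1 made up 36.01% ± 0.705 of this sum in control and 24.35% ± 0.311 in silenced cells. The share varied little between replicates, and most of the difference in the sum lay in AP2M1, with AP2B1 next.

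The clathrin chains went differently from AP2M1. CLTC, the heavy chain, had the highest level of the members, at 684, 707 and 686 CPM in control and 760, 848 and 807 CPM in silenced libraries. Every silenced library lay above every control library. The mean was 692 ± 12.5 CPM and then 805 ± 44.2 CPM (SD, n = 3). The log2 fold change was 0.22 ± 0.068 (standard error), with a range of 0.18 to 0.26 over the 12 other settings. The light chains overlapped between groups. CLTA was at 83.5, 80.2 and 77.2 CPM in control and 79.5, 85.7 and 65.3 CPM in silenced libraries, with a log2 fold change of -0.06 ± 0.0992. CLTB was at 83.2, 79.5 and 86.1 CPM against 69.7, 67.3 and 82.9 CPM, with a log2 fold change of -0.18 ± 0.0906. Silenced replicate 3 was the lowest library for CLTA but the highest silenced library for CLTB. The log2 ratio of CLTA to CLTB counts accordingly was 0.19, 0.35 and -0.34 in the silenced libraries, a wider spread than the 0.01, 0.01 and -0.16 of the control libraries. The coefficient of variation among silenced libraries was 13.6% for CLTA and 11.4% for CLTB, against a median of 4.99% over the 10 members and of 5.92% over 5229 genes whose libraries averaged 500 counts or more. Summed, the 3 chains were at 855 ± 9.31 CPM in control and 955 ± 46.1 CPM in silenced cells. The higher sum lay in CLTC, since the mean levels of CLTA and CLTB were lower in silenced cells.

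PICALM, which helps to shape the pit and retrieves SNARE proteins, was the member with the largest positive difference. It was at 249, 260 and 243 CPM in control and 331, 342 and 317 CPM in silenced libraries. Every silenced library lay well above the highest control library. The log2 fold change was 0.40 ± 0.0669 (standard error), from 251 ± 8.81 to 330 ± 12.2 CPM (SD, n = 3), and it ranged from 0.37 to 0.43 over the 12 other settings. DNM2 was at 194, 172 and 182 CPM in control and 219, 190 and 209 CPM in silenced libraries. Its groups overlapped through silenced replicate 2, and its log2 fold change was 0.17 ± 0.078.

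**Figure D2:**
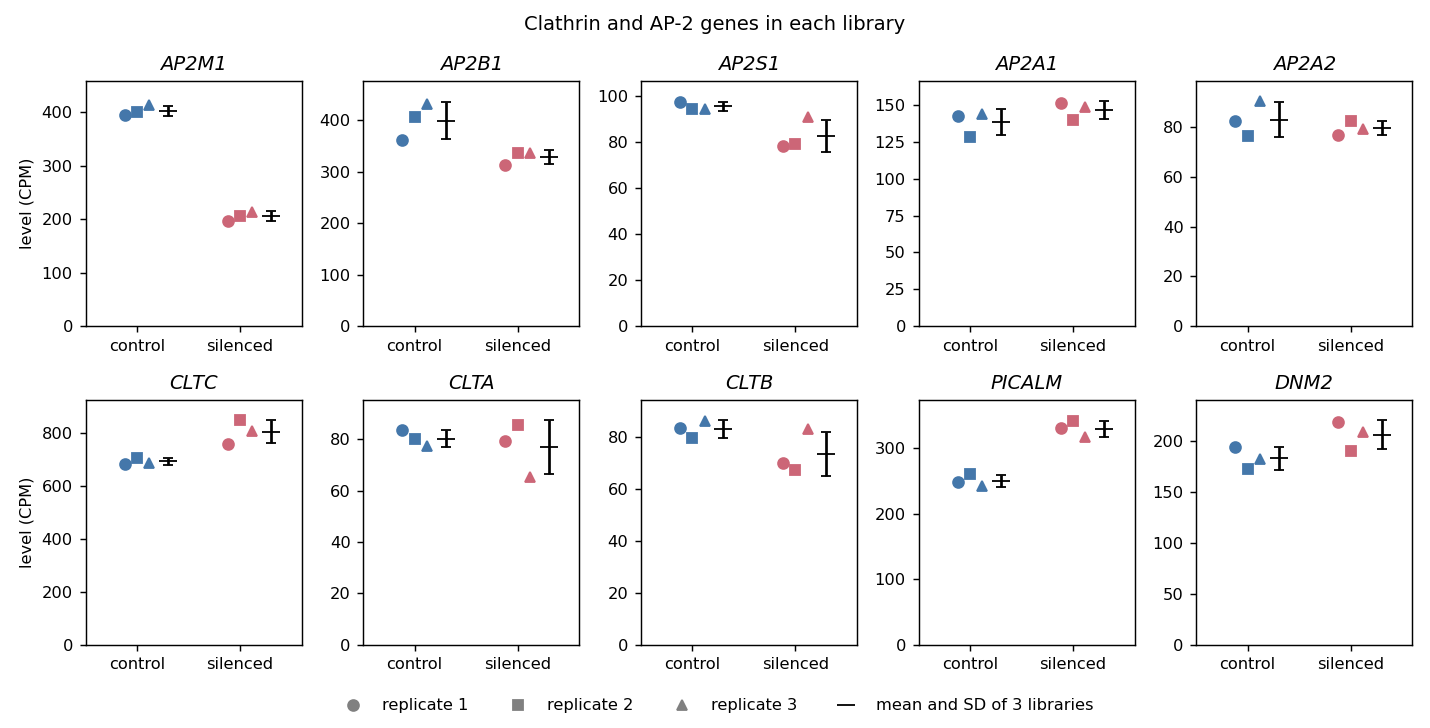
Level (CPM, y axes from 0) of each of the 10 genes in the 3 control (blue) and 3 silenced (red) libraries; symbols mark the replicate numbers, and black bars the mean and SD. AP2M1 is near 400 CPM in control and 205 CPM in silenced libraries, PICALM and CLTC lie higher in every silenced library, and the groups of AP2A1, AP2A2, CLTA, CLTB and DNM2 overlap.

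Over the members together, 4 log2 fold changes were positive and 6 negative, with a median of -0.06 against -0.00 over all 15250 genes, and the summed level was 2407 ± 39.1 CPM in control and 2333 ± 53.4 CPM in silenced cells, or 96.9% of control. With an edgeR adjusted p under 0.05 as the threshold, 2 members were higher (CLTC, PICALM), while 8.75% of all tested genes were, and 2 were lower (AP2B1, AP2M1), while 8.27% of all tested genes were. None had in addition a fold change over 2, which 2.14% of all tested genes had. The silenced libraries lay wholly above the control libraries for 2 members and wholly below for 3, as they did for 19.1% and 17.5% of all tested genes. Nothing is read from these counts, since the members were chosen on this contrast. With DESeq2 size factors (RLE) in edgeR, 1 member was higher and 2 lower.

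AP2M1 stood lower relative to each of the other members within the libraries, a comparison of counts that was added after the values were seen and that does not depend on scaling. The log2 ratio of AP2M1 to AP2B1 counts was 0.13, -0.02 and -0.06 in control and -0.67, -0.70 and -0.65 in silenced libraries. Thus AP2M1 and AP2B1 had near equal counts in control cells and unequal counts in silenced cells. Against PICALM the ratio was 0.66, 0.62 and 0.77 in control and -0.76, -0.73 and -0.57 in silenced libraries, so that the order of these genes was exchanged. Against DNM2 it was 1.02, 1.22 and 1.18 and then -0.16, 0.11 and 0.04. The mean difference between groups ran from -0.69 (against AP2B1) to -1.37 (against PICALM), and the groups did not overlap in any of the 9 ratios. All 9 share AP2M1, taken because it differed most, so they are not separate observations and nothing is read from their number.

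**Figure D3:**
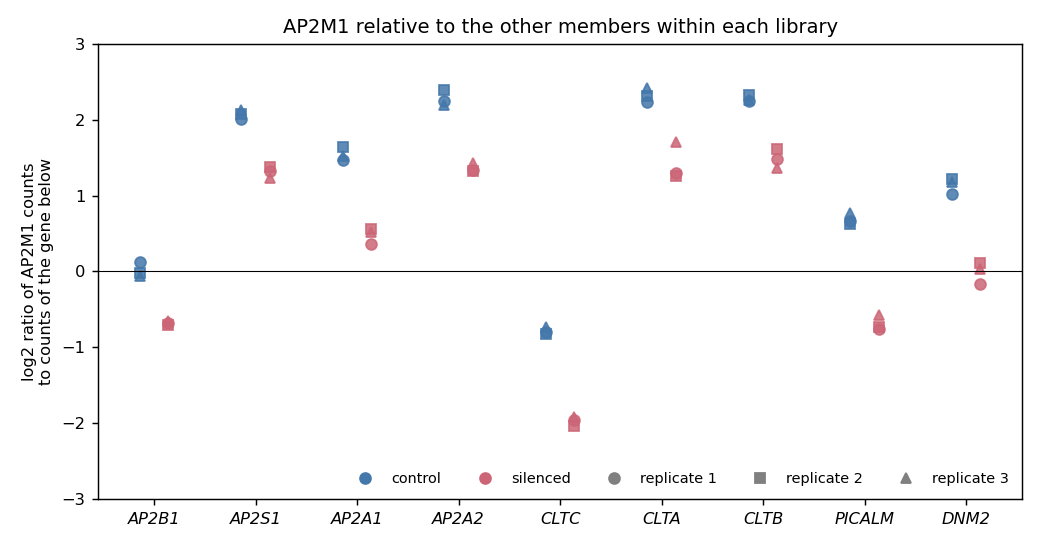
Log2 ratio of AP2M1 counts to the counts of each other member (x axis) within each library, for control (blue) and silenced (red) cells, with symbols for the replicate numbers. The silenced ratios lie below the control ratios for each of the 9 genes, by 0.69 (AP2B1) to 1.37 (PICALM) on the mean.

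Divided by the length of the longest coding transcript, levels can be compared between genes. In control cells AP2M1 had the highest level per length, at 192.5 ± 4.72 CPM per kb (SD, n = 3), followed by AP2S1 (102 ± 1.90 CPM per kb) and CLTC (80.6 ± 1.45 CPM per kb). AP2B1 (70.0 ± 6.22), PICALM (69.4 ± 2.44), CLTB (68.3 ± 2.76) and CLTA (65.0 ± 2.56 CPM per kb) followed. Neighbours among the first 3 of these did not differ beyond their SD, and CLTA was below CLTB by slightly more than either SD. DNM2 (50.9), AP2A1 (40.8) and AP2A2 (17.9 ± 1.54 CPM per kb) were lowest. In silenced cells the first 4 were AP2M1 (98.1 ± 4.41), CLTC (93.7 ± 5.14), PICALM (91.3 ± 3.39) and AP2S1 (88.5 ± 7.44 CPM per kb), and neighbours among these no longer differed beyond their SD. AP2A2 stayed last at 17.1 ± 0.596 CPM per kb. The length of the transcripts that the cells use was not measured, and a shorter form would raise these values.

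AP2M1, AP2S1 and PICALM overlap no other annotated gene. CLTA overlaps GNE, CLTB overlaps ARL10, CLTC overlaps PTRH2, AP2A1 overlaps FUZ and DNM2 overlaps TMED1 on the opposite strand, and whether the counting used strand is not stated, so reads in these overlaps cannot be assigned. No annotated pseudogene carries the name of a member.

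Around these genes, 61 other factors of clathrin-coated pits were examined, of which 54 passed the filter on low counts. After silencing, 7 rose and 2 fell with an edgeR adjusted p under 0.05, or 13.0% and 3.70% of those tested, against 8.75% and 8.27% of all genes. This list was chosen with earlier results of these data known. The median log2 fold change of the 54 was 0.15, against -0.00 over all genes. Of their values 40 were positive, against 7611 of the 15250 over all genes. The highest was CD2AP, a scaffold that links endocytosis to actin, with a log2 fold change of 0.60 ± 0.111 (standard error), from 22.5 to 34.0 CPM (edgeR adjusted p = 0.00544). ARRB2, which brings activated G protein-coupled receptors to AP-2 and clathrin, rose by a log2 fold change of 0.37 ± 0.071 (edgeR adjusted p = 0.00659). SMAP1 (0.36), OCRL (0.35), SNX33 (0.29), FNBP1L (0.28) and, named after its value was seen, SYNJ2 (0.26) also rose, and of these OCRL and SYNJ2 encode phosphoinositide phosphatases that act on vesicle lipids. NUMBL, a cargo adaptor that binds AP-2, fell to 72.2% of control (-0.47 ± 0.102, edgeR adjusted p = 0.011), and INPPL1, a lipid phosphatase, to 81.1% (-0.30 ± 0.0746, adjusted p = 0.0192). With library size alone as scaling 12 of the 54 were higher and 2 lower, and with replicate numbers as a block 13 and 4. CD2AP, ARRB2 and NUMBL stayed past the threshold without any one library. FNBP1L lost its call without any one and also with DESeq2 or RLE factors, SMAP1, OCRL, SNX33 and SYNJ2 each without 3 to 5 of the 6, and INPPL1 without silenced replicate 2.

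The paralogues and partners named by rule gave no further calls. CLTCL1, the second heavy chain gene, was at 48.2 ± 1.71 CPM in control and 47.6 ± 5.35 CPM in silenced cells (edgeR adjusted p = 0.932). It thus had a far lower count than CLTC in both groups. DNM1 (8.31 and 9.03 CPM, edgeR adjusted p = 0.658) and DNM3 (2.12 and 2.78 CPM, adjusted p = 0.31) were low, and SNAP91, the paralogue of PICALM known from neurons, had 0 counts in the 6 libraries. The μ2 kinase AAK1, which phosphorylates the AP2M1 protein, had a log2 fold change of 0.28 ± 0.0891 (edgeR adjusted p = 0.0535), and passed the threshold under 4 of 12 other settings. AAGAB, which assists the assembly of AP-2, was at 0.07 ± 0.0911 (adjusted p = 0.623), and HSPA8, the uncoating ATPase, at -0.04 ± 0.0969 (adjusted p = 0.84).

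Among 28 genes of the other adaptor complexes and the GGA adaptors, all of which passed the filter, 1 rose and 2 fell (3.57% and 7.14%, against 8.75% and 8.27% of all genes), and the median log2 fold change was -0.03. These shares were not above the background. With library size alone as scaling these counts were 3 and 1. AP3D1, the large δ subunit of the AP-3 complex that sorts proteins to lysosomes, was at 271, 266 and 296 CPM in control and 173, 172 and 183 CPM in silenced libraries. The groups lay far apart, and the log2 fold change was -0.66 ± 0.0712 (standard error; edgeR adjusted p = 0.000286). Its 3′-UTR ends with the word shown above, which 4 of the 28 genes held, and the word begins at base 1157 of 1185. AP3B1, another large subunit of AP-3, rose (0.33 ± 0.0838, edgeR adjusted p = 0.0222), so that subunits of 1 complex moved in opposite directions, but its call was lost without control replicate 1 or 3 or silenced replicate 2. AP1M2, the AP-1 counterpart of AP2M1 in epithelial cells, fell (-0.29 ± 0.0816, edgeR adjusted p = 0.0318), but lost the call when any library was left out or with library size alone.

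The receptors that this coat carries moved in both directions. Of 23 listed, 22 passed the filter, and 6 rose and 4 fell with an edgeR adjusted p under 0.05 (27.3% and 18.2%, against 8.75% and 8.27% of all genes), with a median log2 fold change of 0.14. LRP1, a scavenger receptor, rose from 354 ± 33.7 to 514 ± 107 CPM (SD, n = 3; log2 fold change 0.54 ± 0.133, edgeR adjusted p = 0.0197), although silenced replicate 2, at 391.8 CPM, was hardly above control replicate 3, at 391.3 CPM. IGF2R and M6PR, the mannose 6-phosphate receptors, rose by a log2 fold change of 0.41 ± 0.0773 and 0.36 ± 0.0829 (edgeR adjusted p = 0.00604 and 0.0147). EGFR was at 466, 518 and 577 CPM in control and 685, 624 and 705 CPM in silenced libraries, with a log2 fold change of 0.37 ± 0.0875 (edgeR adjusted p = 0.0166). TGFBR1 (0.38, adjusted p = 0.0401) and, named after its value was seen, MET (0.31, adjusted p = 0.0378, both by edgeR) rose as well. TGFBR2, the partner of TGFBR1, fell (-0.45 ± 0.0916, edgeR adjusted p = 0.00834). SORT1 (-0.42 ± 0.0766) and LRP8 (-0.42 ± 0.0732) fell with edgeR adjusted p of 0.00469 and 0.00404, and LRP5, named after its value was seen, with -0.27 and 0.027. IGF2R, TGFBR2, SORT1 and LRP8 kept their calls without any one library. M6PR lost its call without silenced replicate 1, EGFR without control replicate 2 or silenced replicate 1 or 3, LRP1 without either of these silenced libraries or control replicate 1 or 2, and TGFBR1, MET and LRP5 each without 5 of the 6, TGFBR1 also with DESeq2. TFRC, the transferrin receptor and a classical cargo of this route, had a log2 fold change of 0.11 ± 0.0699 and did not pass the threshold (edgeR adjusted p = 0.322).

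Of 10 genes of clathrin-independent uptake, 4 rose and 1 fell (40% and 10%, against 8.75% and 8.27% of all genes), with a median log2 fold change of 0.17. CAV1, the main caveolar coat protein, was at 14.6, 13.5 and 11.9 CPM in control and 26.8, 24.6 and 29.5 CPM in silenced libraries (log2 fold change 1.03 ± 0.116, edgeR adjusted p = 0.000376). CAVIN1, listed as PTRF in the table and required with CAV1 for caveolae, fell from 667 ± 65.3 to 393 ± 31.7 CPM (SD, n = 3; -0.76 ± 0.0884, edgeR adjusted p = 0.00043). These partners thus moved in opposite directions. ARHGAP26 (0.54 ± 0.123), ARHGAP10 (0.36 ± 0.106) and the flotillin FLOT1 (0.35 ± 0.074) rose, with edgeR adjusted p of 0.0142, 0.0405 and 0.0105. ARHGAP10 lost its call without any one library and also with DESeq2 or the filter of 1 count. CAVIN1 was 1 of 2 genes of this list with the word in a 3′-UTR, and the 2 had negative log2 fold changes. So had the 4 adaptor genes with the word and TGFBR2, the only such cargo receptor. Of 8 coat factors with the word only 4 had negative values, and AAK1 (0.28), which holds it, did not. These counts of signs take no threshold. With or without the word, 13 of the 28 adaptor genes had positive values, as had 7611 of all 15250 tested genes. Among the genes of these lists with the word, only CAVIN1, AP3D1, TGFBR2 and NUMBL were lower with an edgeR adjusted p under 0.05. The word was known from these data, so nothing is read from the counts.

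**Figure D4:**
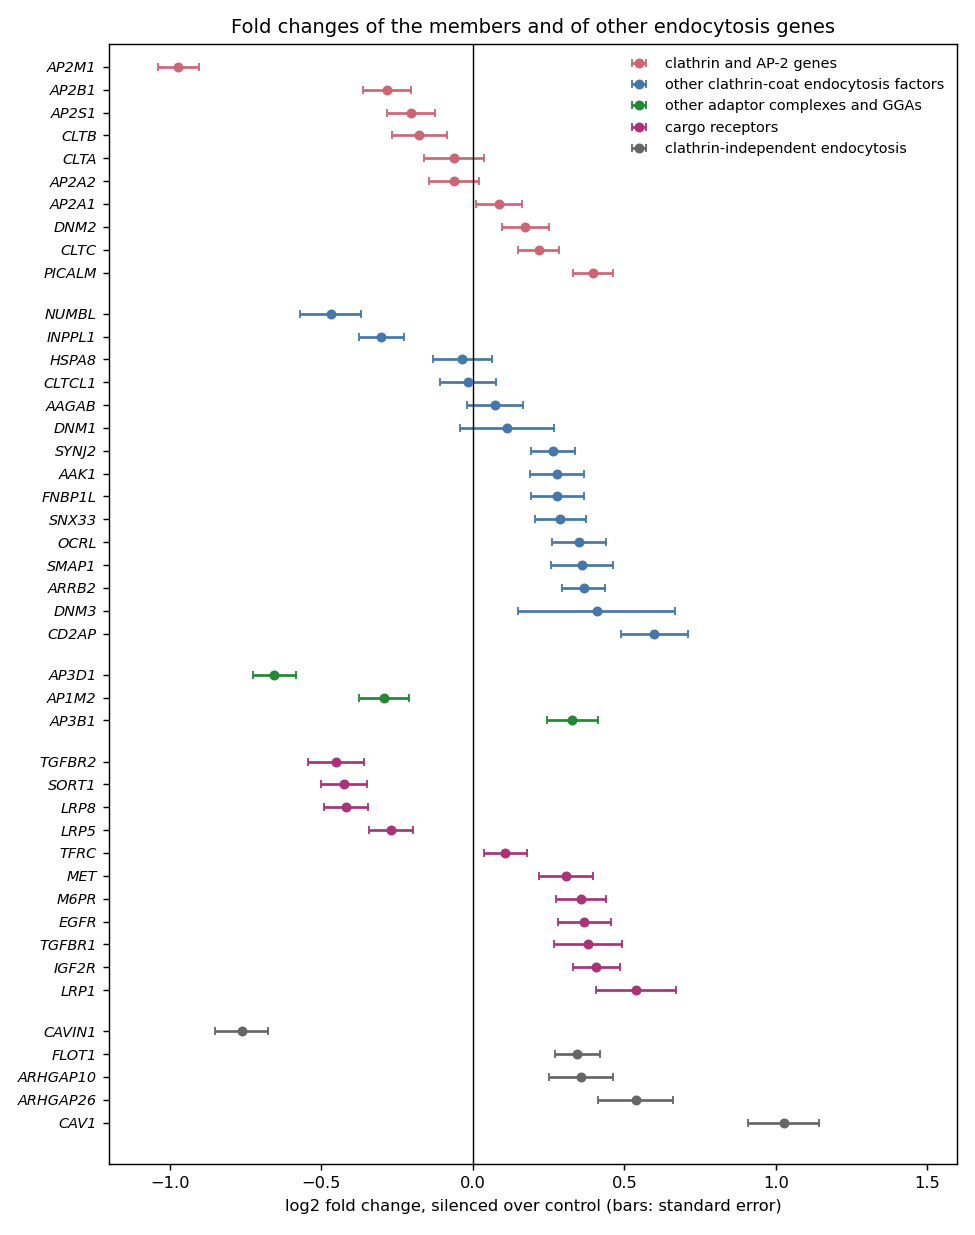
Log2 fold change (silenced over control) of the 10 clathrin and AP-2 genes and of the genes named from 4 other lists, with bars for the standard error of the edgeR fit to 3 control and 3 silenced libraries. AP2M1 (-0.97) lies apart from the other members (-0.28 to 0.40), and the genes from the other lists range from -0.76 (CAVIN1) to 1.03 (CAV1), named in part because they passed the test.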

How the data were processed

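Total RNA of 6 libraries (3 per group) was read on an Ion Proton sequencer. The authors used MapSplice for mapping and for the number of reads per gene, and the deposited values are whole counts for 40173 gene symbols without normalization, 14309 of them at 0 in all libraries. The submitters' processing notes name GRCh37, and the treatment of strand and of reads with several matches is not given in the sources used here. Counts were compared with edgeR 4.0.16 in R 4.3.3: filterByExpr, TMM, quasi-likelihood fit and F test, without covariates, and Benjamini-Hochberg adjustment over 15250 genes (common dispersion 0.0108). Standard errors were derived from each log2 fold change and its F statistic (|log2 fold change|/√F). An exact permutation test of 3 against 3 libraries cannot go below p = 0.1, so single genes rest on the variance shared across genes. Group overlap compares CPM values. On simulated data, edgeR recovered 194 of 200 genes changed by 1 on the log2 scale with 7 false calls among 15194 genes. The changed genes averaged at least 50 counts, and the noise followed the trend of variance across genes, without an outlying library. These rates therefore do not carry over to smaller changes or to the spread of control replicate 3.

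The members and the lists were chosen with earlier results of these data known. Named were all members, the targeted gene, fixed paralogues, partners and cargo receptors, and from each other list at most 8 genes with an adjusted p under 0.05, no overlap of the groups and a mean of at least 50 counts, in order of absolute log2 fold change. Some items that the rule covers are not reported here. Alternatives were DESeq2 1.42.0, RLE size factors, library size only, a filter of 1 count in any library or of 10 in each, a replicate block, an adjusted p under 0.01, each library left out, and the longest transcript for sequences. Locations and sequences came from GENCODE 29 on GRCh38 by symbol, not from the authors' build. Tables were made with Python 3.11.15, pandas 2.3.3 and numpy 2.4.6.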

Additional observations from a re-analysis of the deposited data

How the results depend on the processing

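The members were chosen on this contrast, so their counts past the threshold are a description and support nothing. AP2B1 kept its call without control replicate 1 and lost it without any other library. CLTC was past the threshold in the main fit and in 3 of the 12 other settings (library size alone, the block and DESeq2). It lost the call with RLE, with either other filter and without any one library. The count of higher members was 1 with RLE, with either other filter, at an adjusted p under 0.01 and without any library. That of lower members was 1 at 0.01 and 1 to 2 without a library. The members' median (-0.06) was -0.027 with library size alone and -0.1046 to -0.0105 without a library. With library size alone the median of all genes moved to 0.03, 12 coat factors were higher, and adaptor genes were 3 higher and 1 lower. Adaptor genes were 2 higher with either other filter and with DESeq2, and 2 clathrin-independent genes were lower with at least 1 count. At 0.01, 2 coat factors were higher and 0 lower, 0 adaptor genes were higher and 1 lower, and 1 cargo receptor and 1 clathrin-independent gene were higher; at 0.05 edgeR gave 2 lower coat factors and 1 higher adaptor gene and DESeq2 2 and 2.

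Without a library, coat factors were 2 to 5 higher and 1 to 2 lower, adaptor genes 0 to 3 higher and 1 lower, cargo receptors 1 to 5 higher, and clathrin-independent genes 1 to 2 lower, and the fewest higher coat factors and cargo receptors came without silenced replicate 1. With 1 library left out the log2 fold change ranged across 0 for AP2A2 (-0.1231 to 0.0035), CLTA (-0.1508 to 0.0414), CLTCL1 (-0.1075 to 0.0575) and HSPA8 (-0.1271 to 0.0403), and with library size alone CLTCL1 was at 0.0194. None of these passed the threshold. Of the values of single genes under alternatives, 447 kept direction and side of the threshold, 82 lost it, 4 gained it and 7 changed sign. The causes were not tested.

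Replicate numbers are not said to mark a shared culture. They follow the deposited columns, while a supplementary table of the study numbers the silenced replicates differently, so the correlations, the block and the names of the libraries left out depend on that choice. Deviations of equally numbered libraries correlated at 0.124, 0.149 and 0.067, each library's highest value. The labels state no pairing, so the main fit used none, and whether equal numbers share a culture was not tested. Over all tested genes the block gave 1714 higher and 1735 lower, against 1334 and 1261 in the main fit. With the replicate block 13 coat factors were higher and 4 lower, 2 adaptor genes higher and 2 clathrin-independent genes lower.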
